A study of Mus musculus with 6 samples.

Results

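Mitochondrial ribosomal protein genes were compared between DOX and PBS in bulk RNA from mouse liver. Members were all genes of the count table whose symbol is Mrpl or Mrps followed by a number and at most 1 letter, without pseudogene names. This gave 78 of 20914 listed genes, 49 named Mrpl and 29 named Mrps, on 17 chromosomes. The series holds 6 libraries, 3 labelled DOX and 3 labelled PBS. All 6 have the genotype BucheKI/KI-Hep, carry Alb-Cre, S10D and CKI in their titles and had BDL. The knock-in, the Cre and BDL are thus shared by DOX and PBS, and by the labels only the agent differs. The Alb promoter drives Cre in hepatocytes, and the design text names overexpression of BUCHE, butyrylcholinesterase, in hepatocytes. The labels do not spell out DOX, S10D, CKI or BDL. DOX is the usual short form of doxycycline and is also used for doxorubicin, and BDL usually stands for bile duct ligation. The sources used here give no dose, duration, age or sex.

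Mitochondria hold their own ribosome, which makes the few respiratory chain proteins encoded in mitochondrial DNA. Its RNA comes from mitochondrial DNA, while all of its proteins are encoded in the nucleus, made in the cytosol and imported. Some of these proteins have counterparts in bacterial ribosomes and others are specific to mitochondria. Tetracyclines such as doxycycline bind the small subunit of bacterial ribosomes and can also inhibit mitochondrial translation, which raises the question whether the genes for mitochondrial ribosomal proteins shift under DOX.

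Promoters of mitochondrial ribosomal protein genes are known for short words bound by NRF1, ETS factors, YY1 and ERR factors. The sequences of 4 members described below are shown to let their promoters be compared: 2 members with higher values in DOX (Mrpl58, Mrpl17) and 2 with lower values (Mrps2, Mrpl3). Each is the 150 bases before the RefSeq gene start in GRCm38.p6, read 5′ to 3′ on the gene's strand, and capitals mark a word that was found. Mrpl58 lies at chr11:115403602-115403751 on the plus strand, Mrpl17 at chr7:105811088-105811237 on the minus strand, Mrps2 at chr2:28467916-28468065 on the plus strand and Mrpl3 at chr9:105053118-105053267 on the plus strand.
Mrpl58: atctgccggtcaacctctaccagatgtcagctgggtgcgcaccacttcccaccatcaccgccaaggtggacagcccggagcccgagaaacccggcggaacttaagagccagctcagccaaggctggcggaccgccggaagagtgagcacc
Mrpl17: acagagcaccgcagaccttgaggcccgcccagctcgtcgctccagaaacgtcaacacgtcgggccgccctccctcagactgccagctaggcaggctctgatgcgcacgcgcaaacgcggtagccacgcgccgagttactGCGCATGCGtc
Mrps2: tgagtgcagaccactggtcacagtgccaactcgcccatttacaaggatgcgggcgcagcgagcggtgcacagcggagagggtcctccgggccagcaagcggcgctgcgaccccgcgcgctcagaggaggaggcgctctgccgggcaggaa
Mrpl3: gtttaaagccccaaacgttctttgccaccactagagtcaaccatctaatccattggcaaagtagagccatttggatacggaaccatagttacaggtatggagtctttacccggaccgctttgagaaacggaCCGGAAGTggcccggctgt
Mrpl17 held the NRF1 word GCGCATGCG beginning 11 bases before the start, and Mrpl3 held the ETS word ACTTCCGG on the other strand, in capitals from 19 bases before the start. In the annotation used for exon overlaps, the last 12 bases printed for Mrpl17 and the last 29 for Mrpl3 lie in an exon. Both words fall within these bases. Neither Mrpl58 nor Mrps2 held any of the 4 words searched. Of the 78 members, 69 had a RefSeq promoter of 250 bases before to 50 after the start, and exact matches were counted on both strands there. The NRF1 word stood in 7 of 69 members (10.1%), against 3.74% of 10818 tested genes with a promoter. The ETS word stood in 12 (17.4%, against 8.55%), the YY1 word AAGATGGCG in 8 (11.6%, against 3.35%) and the ERR word TCAAGGTCA in none (against 0.342%). Any of the words stood in 26 members (37.7%, against 15% of genes). The 26 members with a word had a median log2 fold change of 0.03, against 0.06 for the 43 without. The 4 printed promoters do not follow the order of p. Mrpl48, with an ETS word, had a smaller unadjusted p by edgeR than Mrpl17, and Mrpl47, with no word, than Mrpl3.

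The libraries held 32826493 to 41102844 counts, and members took 0.2038%, 0.2294% and 0.2324% of them in DOX, against 0.225%, 0.2288% and 0.246% in PBS. All 78 members passed the filter on low counts, with 185 to 4902 counts per library, so none was lost. Bche, the gene named in the design, had 969.2, 447.5 and 595.0 CPM (counts scaled by library total and TMM factor) in DOX, against 192.8, 244.9 and 194.2 CPM in PBS. Its log2 fold change was 1.67 ± 0.27 (SE) with an edgeR adjusted p of 0.106. Every DOX library lay above every PBS library for Bche, so the level of its RNA went with the agent. Effects of the agent and of Bche on the members cannot be told apart in this design. The 6 hepatocyte markers summed to 123813.7, 77456.9 and 134960.5 CPM in DOX, against 62209.6, 77509.3 and 69121.6 CPM in PBS, so the labelled tissue carried its defining RNA. Alb, serum albumin, alone took 10.1%, 6.09% and 10.2% of counts in DOX and 4.87%, 5.81% and 5.59% in PBS. It made up most of the sum of the hepatocyte markers in every library. Of the 6 markers, 3 had positive and 3 negative fold changes.

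Measured per gene length, in the FPKM the authors deposited, members spanned 62.3-fold. The median member stood at 17.3 FPKM, the quartiles at 9.39 and 31 FPKM. Large subunit genes had a median of 17.5 FPKM and small subunit genes of 17.3 FPKM. Mrpl12, whose product forms the ribosomal stalk and in human cells binds the mitochondrial RNA polymerase, was highest at 113.1 FPKM averaged over 6 libraries. It was followed by the mitochondria-specific large subunit genes Mrpl52 (85.5 FPKM), Mrpl42 (69.4 FPKM) and Mrpl54 (53.0 FPKM) and by Mrps21 (50.6 FPKM), the counterpart of a bacterial small subunit protein. The lowest were Mrps25 (1.81 FPKM), Mrpl3 (2.04 FPKM), Mrpl19 (2.58 FPKM), Mrpl4 (3.04 FPKM) and Mrpl1 (3.70 FPKM). Low members include some with long transcripts in the authors' lengths (8707 bases for Mrpl3, 6076 for Mrps25), against a median member length of 1506 bases, and FPKM divide by that length. In Mrps25, 69.8% of exon bases also lie in exons of Nr2c2 on the opposite strand.

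The order of levels was nearly the same in both groups. The rank correlation between the DOX and PBS means was 0.993 over the 78 members, a description that shares library preparation and gene lengths. Of the 77 pairs of neighbours in that order, 12 were further apart than the larger of their SDs, so most neighbours did not differ beyond their spread. Between the groups, 5 members moved by more than 5 ranks. Mrpl47 moved most, to rank 67 in DOX, against rank 56 in PBS. Mrps28 stood at rank 14 in DOX and at rank 24 in PBS.

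**Figure D1:**
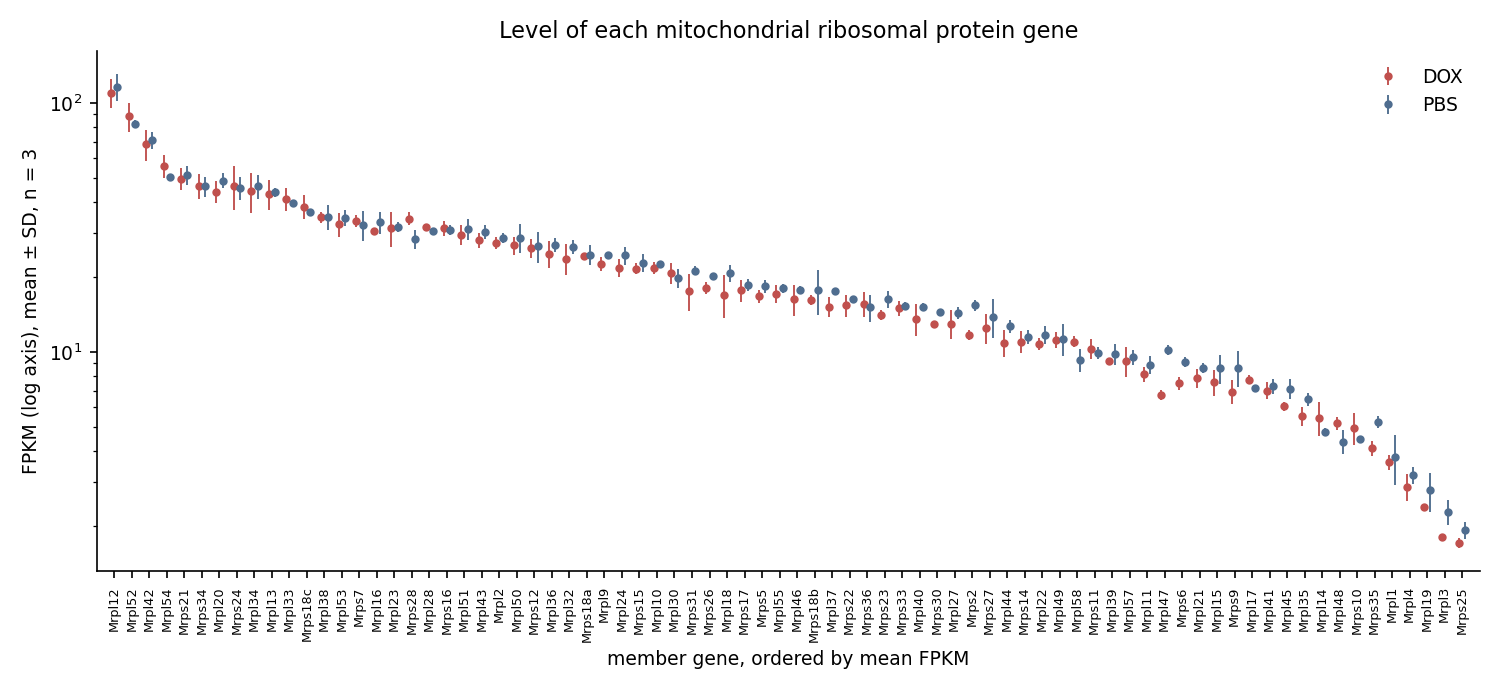
Level of each mitochondrial ribosomal protein gene in FPKM on a log axis, as mean ± SD of 3 libraries, DOX in red left of PBS in blue, ordered by the mean over 6 libraries. Members run from Mrpl12 (113.1 FPKM) to Mrps25 (1.81 FPKM), and the DOX and PBS points of nearly all members lie close to each other relative to that span.

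No mitochondrial ribosomal protein gene passed the test between DOX and PBS. By edgeR's quasi-likelihood test with Benjamini-Hochberg adjustment, 0 of 78 members had an adjusted p under 0.05, where 0.0291% of all 13725 tested genes did (4 genes). With so few calls in the whole table, a count of 0 among 78 members is near the background. The smallest adjusted p of a member was 0.228. DESeq2 called 1 member, Mrps28, where it called 1.19% of genes. At an unadjusted p under 0.05, edgeR gave 6 members higher in DOX, against 5.03% of all genes, and 2 lower, against 4.87% of all genes. The labels do not say that the libraries of a group come from separate animals, so a p-value reflects how far these libraries vary, and that variation may be technical.

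The fold changes of the members were small and went both ways. Of the 78, 52 had a positive log2 fold change of DOX over PBS and 26 a negative one (66.7% positive, against 47.0% of all tested genes). The median member was at 0.05 on the log2 scale, with quartiles of -0.02 and 0.12, against a median of -0.02 for all tested genes. This sign was not stable: the median was -0.080 with scaling to library size alone, with 18 members positive, and -0.032 without DOX replicate 3, with 31 positive. Scaling to library size alone moved the median of all genes to -0.149, and relative to all genes the members were then still at 0.07. Without DOX replicate 3 they were at -0.03 relative to all genes.

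Intervals from the main fit describe the change of each member under TMM scaling and the variation between these libraries, which may be technical. They do not cover the choice of scaling, which moved the members' median from 0.053 to -0.080 with library size alone. The median standard error of a member's log2 fold change was 0.11, and for 65 members the fold change was under 0.2 in size. The 95% interval lay within a 1.5-fold change in either direction for 72 of 78 members. It reached past 1.5-fold for the other 6, Mrps28, Mrpl48, Mrpl58, Mrpl14 and Mrps10 on the higher side and Mrpl47 on the lower side. The interval included 0 for 70 members. An adjusted p above the threshold does not show that a member was the same in both groups.

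**Figure D2:**
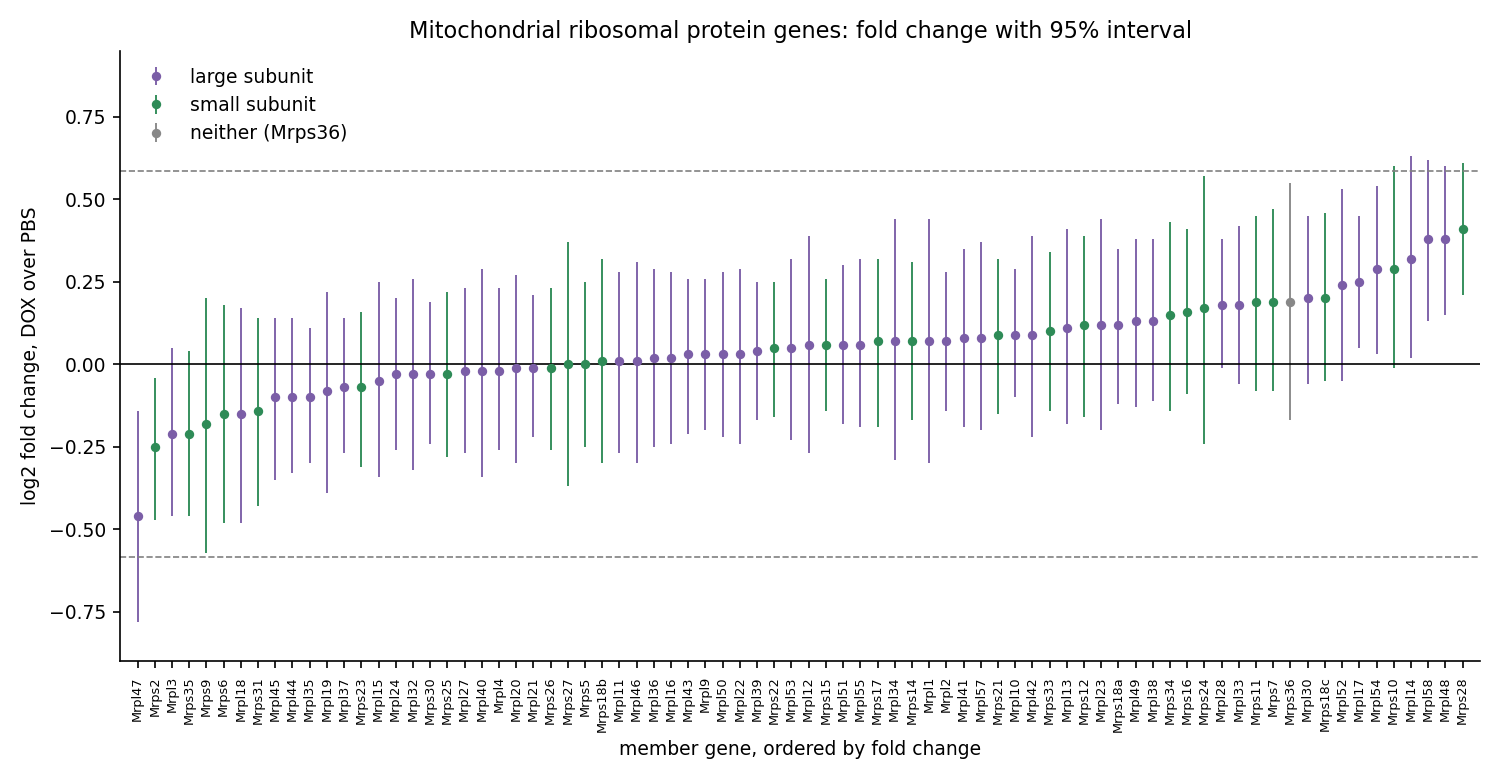
Log2 fold change of DOX over PBS for each of the 78 members with its 95% interval, ordered by fold change and coloured by ribosomal subunit. Dashed lines mark a 1.5-fold change. Points run from -0.46 (Mrpl47) to 0.41 (Mrps28), and the intervals of 70 members cross 0. The balance of points above 0 turned with library size scaling and without DOX replicate 3.

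Among members higher in DOX, Mrps28, the counterpart of a bacterial small subunit protein, had the smallest p. It had 25.4, 26.3 and 26 CPM in DOX, against 20.9, 18.6 and 18.9 CPM in PBS. All 3 DOX libraries lay above all 3 PBS libraries, and the DOX libraries were close to each other. The log2 fold change was 0.41 ± 0.09 (SE) with a 95% interval of 0.21 to 0.61 and an edgeR adjusted p of 0.228. Over the alternatives its adjusted p ranged from 0.0413, by DESeq2, to 0.472.

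Mrpl48, a mitochondria-specific protein of the large subunit, had 23.2, 25.1 and 26.1 CPM in DOX, against 19.4, 17.4 and 20.4 CPM in PBS. The groups did not overlap. Its log2 fold change was 0.38 ± 0.10 (SE), with an edgeR adjusted p of 0.337. In Mrpl48, 8.68% of exon bases are shared with Rab6a on the opposite strand, and a pseudogene carries its name but is not in the table. Mrpl58, a peptidyl-tRNA hydrolase that frees stalled ribosomes, had 29.1, 27.7 and 33.8 CPM in DOX, against 23.6, 21.4 and 24.8 CPM in PBS. All DOX libraries lay above all PBS libraries, with DOX replicate 3 highest. Its log2 fold change was 0.38 ± 0.11 (SE), with an edgeR adjusted p of 0.369.

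Mrpl17, whose bacterial counterpart sits in the large subunit, had 51.4, 52.9 and 58.9 CPM in DOX, against 45, 47.7 and 45 CPM in PBS. The groups did not overlap, and the log2 fold change was 0.25 ± 0.09 (SE), with an edgeR adjusted p of 0.442. Mrpl54, a mitochondria-specific protein of the large subunit, had 29.9, 34.0 and 39.3 CPM in DOX, against 27.8, 29.8 and 27.0 CPM in PBS. The lowest DOX library and the highest PBS library nearly met, at a log2 fold change of 0.29 ± 0.11 (SE), 0.18 without DOX replicate 3, and an edgeR adjusted p of 0.480.

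In 2 further genes DOX replicate 3 stood well above the other libraries. Mrpl14, which lies at the interface of the subunits, had 35.3, 42.2 and 51.4 CPM in DOX, against 33.7, 34.6 and 34.9 CPM in PBS, with a log2 fold change of 0.32 ± 0.13 (SE). Mrps10, a conserved small subunit gene, had 22.6, 24.7 and 32.1 CPM in DOX, against 21.2, 21.9 and 21.7 CPM in PBS, with a log2 fold change of 0.29 ± 0.13 (SE). Without DOX replicate 3 these values were 0.17 for Mrpl14 and 0.13 for Mrps10. In both genes DOX replicate 1 was the DOX library nearest to PBS. Mrpl28, the counterpart of a bacterial large subunit protein, had 34.1, 34.0 and 38.4 CPM in DOX, against 30.2, 32.2 and 31.4 CPM in PBS, and a log2 fold change of 0.18 ± 0.09 (SE). Its groups did not overlap, and its edgeR adjusted p was 0.520.

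Among members lower in DOX, Mrpl47 differed most. This counterpart of a bacterial large subunit protein near the exit of the peptide tunnel had 5.79, 5.91 and 6.78 CPM in DOX, against 7.87, 8.84 and 8.67 CPM in PBS. All DOX libraries lay below all PBS libraries. The log2 fold change was -0.46 ± 0.14 (SE), with a 95% interval of -0.78 to -0.14 and an edgeR adjusted p of 0.399. In Mrpl47, 13.9% of exon bases are shared with Ndufb5 and 10.2% with Actl6a, both on the opposite strand, and the sources used here do not say whether counting used strand.

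Mrps2, a conserved small subunit protein, had 31.3, 27.6 and 32.4 CPM in DOX, against 34.3, 36.9 and 37.5 CPM in PBS. The groups did not overlap, and the log2 fold change was -0.25 ± 0.09 (SE), with an edgeR adjusted p of 0.459. Mrps35, a mitochondria-specific small subunit protein, had 16.9, 17.8 and 20.6 CPM in DOX, against 19.7, 22.5 and 22 CPM in PBS. Here the groups overlapped, at a log2 fold change of -0.21 ± 0.11 (SE). Mrpl3, a conserved large subunit protein near the peptidyl transferase centre, had 16.6, 15.8 and 16.8 CPM in DOX, against 20.8, 19.4 and 16.6 CPM in PBS. PBS replicate 3 lay within the DOX range, and the log2 fold change was -0.21 ± 0.11 (SE). The next 4 by p, Mrps31, Mrps9, Mrpl18 and Mrpl35, had log2 fold changes of -0.14, -0.18, -0.15 and -0.10, with adjusted p from 0.734 to 0.754 by edgeR and overlapping groups. Without DOX replicate 1, Mrps31 was at -0.01, Mrpl18 at 0.00 and Mrpl35 at -0.05, and without PBS replicate 2, Mrps9 was at -0.01.

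**Figure D3:**
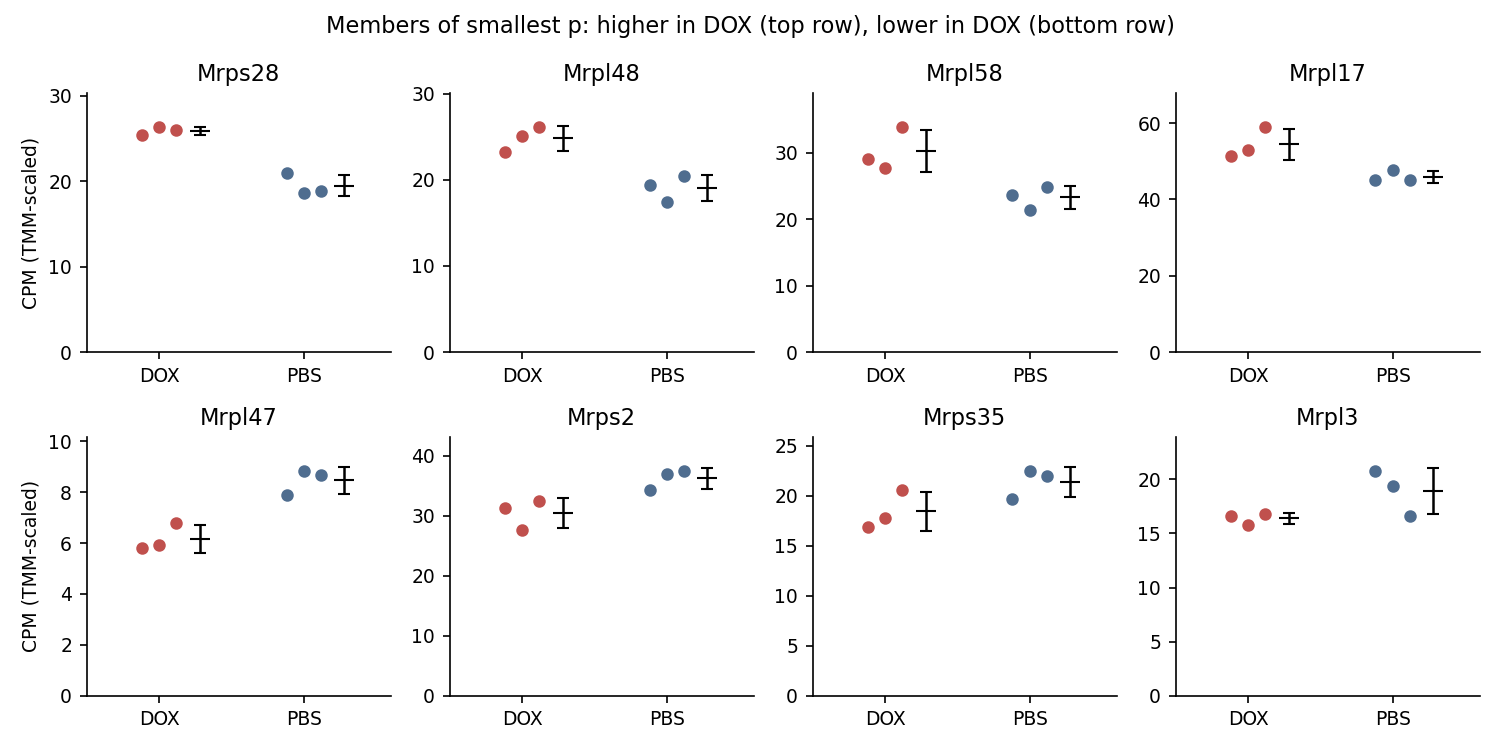
TMM-scaled CPM in each library (points) with the mean ± SD of 3 libraries beside them, DOX in red left of PBS in blue, for the 4 members of smallest p higher in DOX (top) and the 4 lower in DOX (bottom). The groups do not overlap in Mrps28, Mrpl48, Mrpl58, Mrpl17, Mrpl47 and Mrps2, and do overlap in Mrps35 and Mrpl3. None passed the adjusted threshold.

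Counted over all members, the groups did not overlap in 13 genes and overlapped in 65. In 10 members every DOX library lay above every PBS library, where 7.84% of all genes did so, and in 3 every DOX library lay below, where 9.02% of all genes did so. Beside those already given, the 10 hold Mrpl52 and Mrps11, and the 3 hold Mrps6. Mrpl52 had 33.9, 34.7 and 46.4 CPM in DOX, against 31.4, 33.1 and 33 CPM in PBS. Mrps11, named for this pattern after its values were seen, had 10.3, 11.8 and 11.7 CPM in DOX, against 9.81, 9.71 and 10.2 CPM in PBS. Mrps6, named in the same way, had 6.43, 5.46 and 6.45 CPM in DOX, against 6.51, 6.87 and 7.01 CPM in PBS. In Mrps11, 7.97% of exon bases are shared with another member, Mrpl46, on the opposite strand. An exact two-sided permutation test over 3 against 3 libraries gives p = 0.1 for each of the 13 genes, the smallest it can give.

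Members with a known special role differed in size and sign. Mrpl58 (0.38) and Mrpl3 (-0.21), described above, were furthest from 0. Among genes of the stalk and its base, Mrpl12 had a log2 fold change of 0.06 ± 0.14 (SE), Mrpl10 of 0.09 ± 0.09 (SE) and Mrpl11 of 0.01 ± 0.12 (SE). Mrpl12 had 95.4, 112.7 and 132.3 CPM in DOX, against 93.9, 112.7 and 119.8 CPM in PBS, so that each group covered nearly the range of the other. Mrps12, at the decoding centre of the small subunit, had 25.6, 28.9 and 31.3 CPM in DOX, against 23.6, 25.4 and 30.1 CPM in PBS, at a log2 fold change of 0.12 ± 0.12 (SE). The small subunit genes Mrps5 and Mrps7, which have bacterial counterparts, were at 0.00 ± 0.11 and 0.19 ± 0.12 (SE), and the mitochondria-specific Mrps22 at 0.05 ± 0.09 (SE). Mrpl44, which resembles RNase III, and Mrpl45, which anchors the ribosome to the inner membrane, were both at -0.10, with an SE of 0.10 and 0.11. The groups overlapped in all of these genes except Mrpl58, described above.

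The 3 paralogues related to bacterial S18 sit in different subunits, and Mrps18a and Mrps18b are counted among the mitochondria-specific members. Mrps18a, which belongs to the large subunit in spite of its name, had a log2 fold change of 0.12 ± 0.10 (SE). Mrps18b and Mrps18c, both of the small subunit, had 0.01 ± 0.13 and 0.20 ± 0.11 (SE). In Mrps18b, 30.5% of exon bases are shared with an opposite-strand gene. Mrps18c had 17.5, 20.6 and 22.4 CPM in DOX, against 17.8, 17.8 and 17.0 CPM in PBS, so that DOX replicate 1 lay within the PBS range. Of the other genes lowest in FPKM, Mrps25 was at -0.03, Mrpl19 at -0.08, Mrpl4 at -0.02 and Mrpl1 at 0.07, and of those highest, Mrpl42 and Mrps21 were both at 0.09. The 43 members not selected for naming ran from -0.15 to 0.20 on the log2 scale, 30 of them positive, with no adjusted p under 0.58 by edgeR and overlapping groups in 41.

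No subunit or class of origin stood far from the others. The median log2 fold change was 0.04 for the 51 genes of the large subunit (34 positive), while the 26 of the small subunit (17 positive) were at 0.06. Mrps36 is counted in neither, since its product belongs to the oxoglutarate dehydrogenase complex. The 46 members with bacterial counterparts (31 positive) had a median of 0.06 and the 32 without (21 positive) of 0.04. The 16 conserved small subunit genes had the highest median of the 4 combinations (0.10, 13 positive) and the 10 mitochondria-specific ones the lowest (-0.01, 4 positive). Large subunit genes were at 0.02 where conserved (18 of 30 positive) and at 0.06 where specific to mitochondria (16 of 21 positive). With library size scaling these 4 medians were -0.04, -0.15, -0.11 and -0.08, all negative. Differences between the classes were not tested.

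The members did not move as 1 block with the group. The median member was at 4.54, 4.66 and 4.80 log2 CPM in DOX replicates 1 to 3, against 4.54, 4.66 and 4.69 log2 CPM in PBS replicates 1 to 3. The members together held 2121.2, 2284.1 and 2578.5 CPM in DOX, against 2108.0, 2272.9 and 2303.8 CPM in PBS. With TMM scaling DOX replicate 3 was thus the highest library, DOX replicate 1 and PBS replicate 1 were the lowest, and the groups overlapped. As a share of all counts, PBS replicate 3 was highest (0.246%, against 0.2324% in DOX replicate 3) and DOX replicate 1 lowest (0.2038%). The counts of members that follow also rest on TMM scaling. DOX replicate 3 was the highest of the 6 libraries for 45 members. DOX replicate 1 was the lowest for 31 members and PBS replicate 1 for 21. The median SD of log2 CPM within a group was 0.15 in DOX and 0.10 in PBS for members, against 0.19 in DOX and 0.17 in PBS for all genes.

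**Figure D4:**
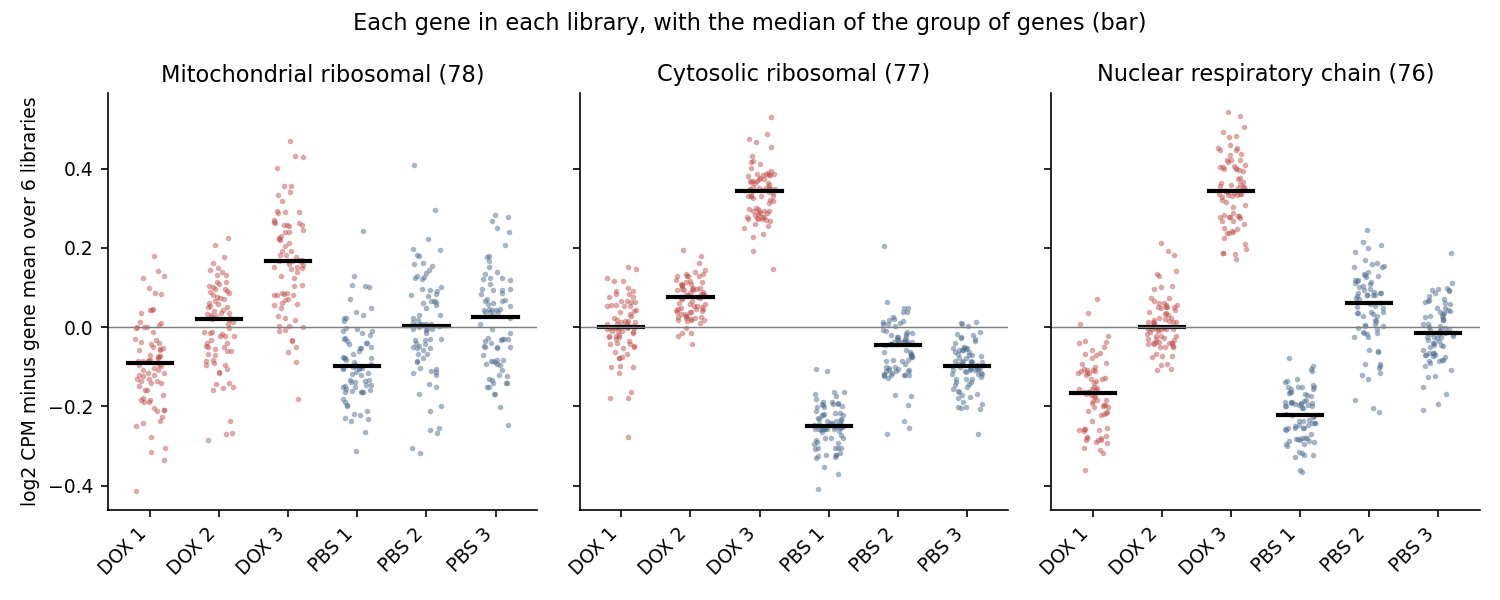
Log2 CPM of each gene minus its mean over the 6 libraries, for the 78 mitochondrial ribosomal, 77 cytosolic ribosomal and 76 nuclear respiratory chain genes, DOX libraries in red left of PBS libraries in blue, with the median as a bar. The mitochondrial ribosomal medians are -0.09, 0.02 and 0.17 in DOX and -0.10, 0.00 and 0.03 in PBS. The cytosolic medians are 0.00, 0.07 and 0.34 in DOX and -0.25, -0.04 and -0.10 in PBS, and do not overlap between the groups.

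DOX replicate 3 also had the lowest scaling factor, 0.9015, against 0.961 and 1.005 in the other DOX libraries and 1.007 to 1.068 in PBS. The 7 markers of cholangiocytes, cells of the bile ducts, summed to 242.4, 213.2 and 118.7 CPM in DOX, against 278.9, 364.1 and 256.8 CPM in PBS, and all 7 had negative fold changes. DOX replicate 3 was the lowest library for these markers. The 6 endothelial markers summed to 168.4, 86.8 and 161.1 CPM in DOX, against 104.7, 35.1 and 106.0 CPM in PBS. These sums overlapped between the groups, with PBS replicate 2 lowest, and all 6 markers had positive fold changes. The 7 stellate cell markers summed to 400.3, 337.0 and 171.6 CPM in DOX, against 271.0, 157.6 and 349.5 CPM in PBS. Here too the groups overlapped, and all 7 had positive fold changes. The 3 erythroid markers summed to 68.1, 19.8 and 147.8 CPM in DOX, against 63.6, 44.2 and 78.5 CPM in PBS, highest in DOX replicate 3. Their groups also overlapped, and all 3 had positive fold changes. None of these markers passed the adjusted threshold and none of the 4 lists summed to 0 in a library. Their part in the members' values was not tested, and in bulk liver fewer cells of a type and less RNA per cell cannot be told apart.

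Cytosolic ribosomal protein genes, whose products form the ribosome outside mitochondria, leaned further to DOX than the mitochondrial ones. All 77 were positive, at a median of 0.27 on the log2 scale. In 53 of them all DOX libraries lay above all PBS libraries, against 10 of 78 mitochondrial members and 7.84% of all genes. No cytosolic gene passed the adjusted threshold. By edgeR 31 had an unadjusted p under 0.05, all higher in DOX, where 5.03% of all genes did. Rplp1, a stalk protein, had 590.4, 608.4 and 717.2 CPM in DOX, against 450.8, 440.6 and 440.9 CPM in PBS, at a log2 fold change of 0.52 ± 0.12 (SE). Its edgeR adjusted p was 0.259. Over the alternatives the cytosolic median stayed between 0.14 and 0.34, with 75 to 77 genes positive. The mitochondrial median ran from -0.08 to 0.11 with 18 to 62 positive. The difference between the lists was not tested.

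Nuclear genes of the respiratory chain, the partners of the proteins that the mitochondrial ribosome makes, had a median log2 fold change of 0.13, with 70 of 76 positive. Their median was -0.02 without DOX replicate 3, with 34 positive, and was -0.01 with library size scaling. Ndufa7, a complex I subunit, had 98.1, 97.7 and 121.0 CPM in DOX, against 81.5, 81.2 and 86.7 CPM in PBS, at a log2 fold change of 0.35 ± 0.11 (SE) and an edgeR adjusted p of 0.400. The respiratory chain list summed to 15192.6 CPM in DOX replicate 3, against 10666.3 and 12016.3 CPM in the other DOX libraries and 10427.3 to 12643.8 CPM in PBS.

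**Figure D5:**
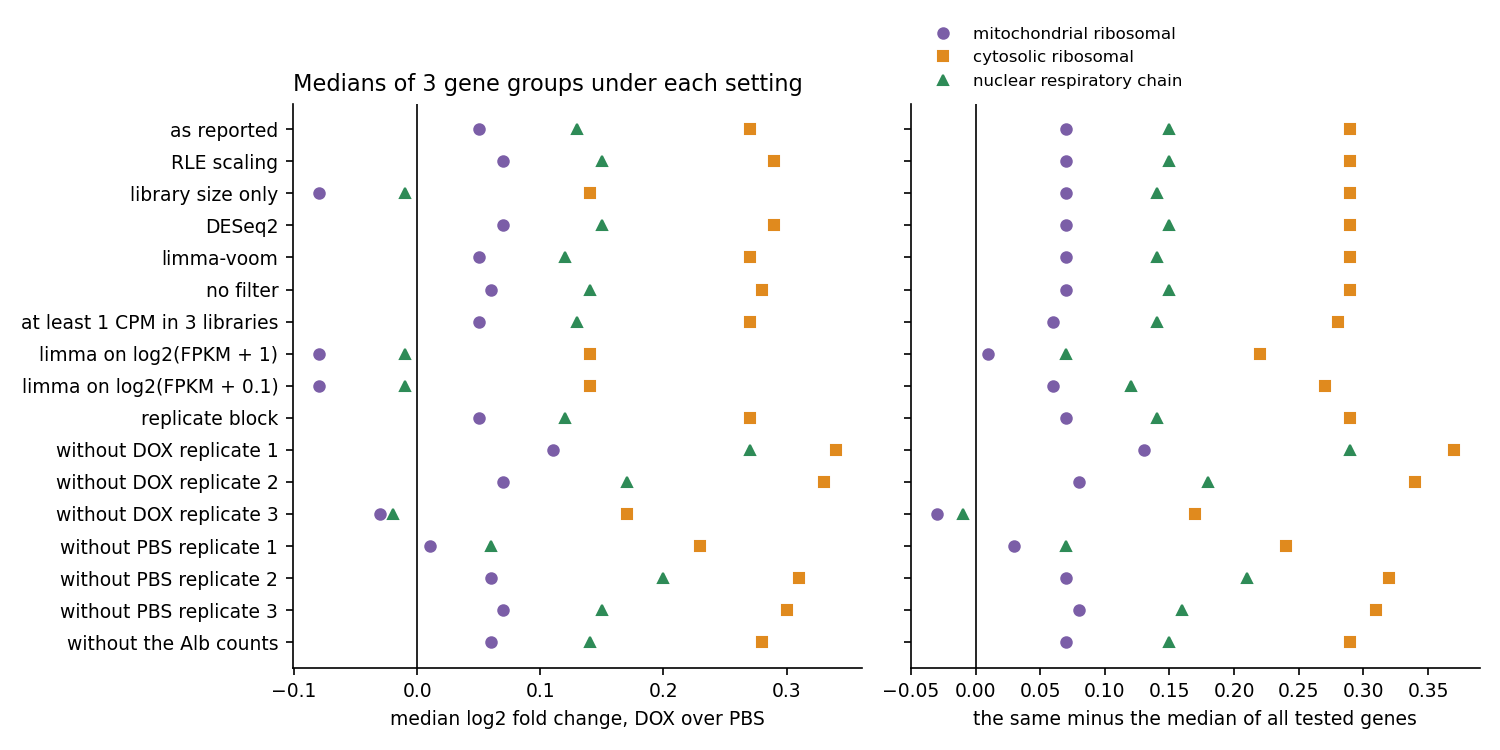
Median log2 fold change of DOX over PBS for 3 gene groups under the reported setting and 16 alternatives (left), and the same minus the median of all tested genes (right). The cytosolic ribosomal median stays at 0.14 or above on the left. The mitochondrial ribosomal median runs from -0.08 to 0.11 on the left, and on the right is below 0 without DOX replicate 3 only.

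Other genes of mitochondrial translation held no called gene. The 5 mitochondrial ribosomal proteins with other symbols had a median log2 fold change of 0.09, all positive, led by Gadd45gip1 and Aurkaip1 (both 0.13), but none was positive with library size scaling. The 14 translation factors had a median of 0.03 (8 positive), against -0.11 (3 positive) with library size scaling, -0.07 (5 positive) without DOX replicate 3 and -0.04 (6 positive) without PBS replicate 1. Mrrf, which recycles ribosomes after termination, had 21.5, 21.9 and 22.4 CPM in DOX, against 20.7, 17.3 and 17.8 CPM in PBS, at a log2 fold change of 0.23 ± 0.10 (SE) and an edgeR adjusted p of 0.499. The 20 genes that charge mitochondrial transfer RNAs had a median of 0.11 (15 positive, 9 with library size scaling). Qrsl1, of the complex that makes glutaminyl-tRNA, was lowest among them at -0.43 ± 0.18 (SE).

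Genes that build the mitochondrial ribosome had a median near that of all tested genes, and genes that transcribe its RNA had a lower one. The 27 assembly genes had a median of -0.03 (11 positive), against -0.02 for all tested genes. In 5 of these 27 genes all DOX libraries lay above all PBS libraries, where 7.84% of all genes did so. In 3 all DOX libraries lay below, where 9.02% of all genes did so. These shares were not compared by a test. Mettl17, which is needed for assembly of the small subunit, had 5.82, 6.62 and 6.24 CPM in DOX, against 9.14, 6.69 and 8.85 CPM in PBS. The groups did not overlap, though DOX replicate 2 and PBS replicate 2 nearly met, and the log2 fold change was -0.40 ± 0.16 (SE) with an edgeR adjusted p of 0.485. Slirp, which stabilises mitochondrial messenger RNA, was at 0.25 ± 0.11 (SE). The 10 genes of mitochondrial transcription had a median of -0.12 (4 positive), among them Tefm, the elongation factor, at -0.30 ± 0.13 (SE). Mterf1b and Mterf1a, at -1.07 ± 0.46 and -0.61 ± 0.27 (SE), were low in level, with 0.24 to 0.999 CPM and 0.972 to 1.68 CPM. With at least 1 CPM in 3 libraries required, 9 transcription genes remained, at a median of -0.07. Over the alternatives the median of the transcription genes stayed between -0.26 and -0.07, and that of the assembly genes ran from -0.17 to 0.04. Of 13 protein genes and 2 ribosomal RNA genes of mitochondrial DNA searched for by symbol, 0 were found in the count table. They were therefore not analysed here.

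Genes known to answer impaired mitochondrial protein balance were read in the same fit, and none was called. The 13 mitochondrial chaperones and proteases had a median log2 fold change of 0.05 (11 positive, 3 with library size scaling). Clpx, the unfoldase of the ClpXP protease, had 206.3, 221.5 and 213.2 CPM in DOX, against 128.7, 172.2 and 160.8 CPM in PBS. All DOX libraries lay above all PBS libraries, with a log2 fold change of 0.47 ± 0.13 (SE) and an edgeR adjusted p of 0.355. The 16 targets of ATF4, the transcription factor of the integrated stress response, had a median of 0.04 (9 positive). Its sign turned with 1 library: the median was -0.06 without DOX replicate 1, -0.08 without PBS replicate 3 and 0.18 without PBS replicate 2, and it was -0.10 with library size scaling.

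Single ATF4 targets went in opposite directions. Fgf21, a liver hormone, had 2.24, 1.45 and 3.19 CPM in DOX, against 0.439, 1.06 and 1.23 CPM in PBS, at a log2 fold change of 1.34 ± 0.45 (SE). Atf5, a transcription factor of the mitochondrial stress response, had 224.3, 260.4 and 212.5 CPM in DOX, against 117.4, 206.1 and 168.4 CPM in PBS, at 0.50 ± 0.20 (SE). Ddit3, which encodes CHOP, had 4.88, 5.76 and 3.89 CPM in DOX, against 5.98, 7.66 and 13.9 CPM in PBS, at -0.92 ± 0.31 (SE). These 3 were the ATF4 targets of smallest p, and the groups overlapped in none of them. Of all 16 targets, 2 had every DOX library above every PBS library, where 7.84% of all genes did so. In 1 every DOX library lay below, where 9.02% of all genes did so. The edgeR adjusted p was 0.423 for Fgf21 and Ddit3 and 0.474 for Atf5. Of 8 regulators of mitochondrial gene expression, 7 had negative fold changes (median -0.07). Esrra, which encodes a nuclear receptor of the ERR family, was furthest down at -0.50 ± 0.18 (SE) with overlapping groups. The only positive one was Ppargc1a, at 0.35 ± 0.30 (SE), also with overlapping groups.

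Gene length and level were set beside the members' values, since members are short, with a median of 1506 bases against 3561 for all tested genes. Of the genes outside the list, 429 had a length of 944 to 2458 bases and a mean of 19.3 to 35.1 CPM, the quartiles of the members. Their median log2 fold change was 0.02, with 58% positive, against 0.05 and 66.7% for the members. Across the 78 members, which share libraries and scaling, the rank correlation of the log2 fold change was -0.29 with length and 0.38 with mean FPKM. The part of length in the members' values was not tested further.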

How the data were processed

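Per the labels' protocols, mouse liver RNA was purified on columns, and libraries were made from 1.3 ug with a SMARTER mRNA-Seq kit. The authors deposited raw read counts per gene and FPKM values for 6 libraries. GRCm38 and mm10 are the builds in the submitters' processing notes. The sources used here do not give the aligner, the counter or the use of strand. In the files, the deposited FPKM equal counts over 1 length per gene and the library total for 18913 of 18913 genes with counts in at least 2 libraries (relative tolerance 1e-05). Libraries held 32826493 to 41102844 counts. A chi-square test found replicates further apart than counting error (41.9 to 132.2 per degree of freedom), and each library is 1 sample.

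The test on counts was that of edgeR 4.0.16 under R 4.3.3 (filterByExpr, TMM, quasi-likelihood, DOX against PBS, Benjamini-Hochberg over all tested genes, threshold 0.05), and the procedure was tested on simulated data. Fold changes are log2 of DOX over PBS and CPM are TMM-scaled. Exact permutation tests are two-sided over 3 against 3 libraries. Alternatives used DESeq2 1.42.0, limma 3.58.1, RLE or library size scaling, other filters, log2 of the deposited FPKM plus 1 or 0.1, a replicate block, each library left out, and, chosen after seeing the data, the table without Alb.

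Members, lists and tests were chosen with earlier results of these data known. Named were the 8 members of smallest p in each direction, the 5 highest and 5 lowest in FPKM, the Mrps18 paralogues, 11 members of known special role, and genes of smallest p in each other list. Promoters are RefSeq (GRCm38.p6). Exon overlaps use the GRCm38 annotation.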

Additional observations from a re-analysis of the deposited data

How the results depend on the processing

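Of the 16 alternatives, most left the members' results close to those reported. The count of called genes over the whole table, 4 as reported, was 176 by DESeq2, 61 with no filter on low counts, 21 with the replicate block and 2 by limma-voom, and 3 to 4 with each library left out; the cause was not tested. The number of called members, 0 as reported, was 1 by DESeq2 (Mrps28) and 0 in every other alternative. The number of members with a positive log2 fold change, 52 as reported, was 18 with library size scaling, 18 with limma on log2(FPKM + 1), 19 with limma on log2(FPKM + 0.1), and 31 to 62 with each library left out, the lowest without DOX replicate 3. The members' median, 0.053 as reported, was -0.080, -0.079 and -0.082 under those 3 alternatives. All 3 divide by the library total with no further scaling factor. With RLE scaling and by DESeq2, which do not use TMM either, the median was 0.069 and 0.072, with 56 and 57 members positive. With each library left out it ran from -0.032 to 0.109. Relative to the median of all genes it stayed between -0.027 and 0.134. Of 35 named members, 20 kept their sign in all 16 alternatives and 15 changed it at least once; among the 16 of smallest p, Mrpl18 alone did. Without the Alb counts the median was 0.058, with 53 members positive. The replicate numbers were not taken as pairs in the main fit. Same-numbered libraries deviated together with correlations of 0.192, 0.13 and 0.00975, against -0.183 to 0.0565 for differently numbered ones. For replicates 1 and 2 the value lay above all of the latter, and whether the numbers mark pairs was not tested. With the replicate block, 0 members were called and the median was 0.051, with 50 positive. At 3 libraries a group and a median standard error of 0.11, changes of the size seen in most members were not detectable.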
